A study of Mus musculus with 4 samples.

Results

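The nuclear-encoded genes of oxidative phosphorylation (OXPHOS) were followed through the immune cells of mouse B16 melanomas. They were all features whose symbol names a subunit of respiratory complexes I to IV or of the ATP synthase: Ndufa, Ndufb, Ndufc, Ndufs or Ndufv with a number, Ndufab1, the Uqcr genes, Sdha to Sdhd, Cyc1, Cox4 to Cox8, the Atp5 genes and 2010107E04Rik. The rule took 87 feature rows with 86 symbols out of 31053. B16 is a transplantable melanoma line of C57BL/6 mice. It was grown in the right flank of male C57BL/6 mice for 12 days, in wild-type hosts and in hosts labelled as ATPIF1 knock-out. The kind of allele is not given in the sources used here, and the melanoma cells are of the injected line in both kinds of host. The labels state 6 mice, and it is unclear if that is per genotype. Tumour tissue of the mice of a genotype was mixed, leukocytes were sorted by CD45, and 1 RNA library with 5′ tags was made in droplets from each pool. With 1 library per genotype there is no replicate, so differences between the genotypes carry no test. Intervals below are exact 95% intervals that cover counting error only.

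Oxidative phosphorylation is carried out in the inner mitochondrial membrane. Complexes I (NADH dehydrogenase), II (succinate dehydrogenase), III (cytochrome bc1) and IV (cytochrome c oxidase) pass electrons to oxygen, and I, III and IV pump protons, which drive the ATP synthase, also called complex V. A few core subunits come from mitochondrial DNA and all others, including every subunit of complex II, from nuclear genes. In leukocytes the balance between this pathway and glycolysis differs with cell type and activation. The protein that Atpif1 encodes binds the F1 part of the ATP synthase and inhibits its hydrolysis of ATP.

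Atpif1 was checked first. No class had less of its RNA under the KO label. In CD8 T cells it stood at 114 CPM (the gene's UMIs scaled to a common total of UMIs, where a UMI marks 1 captured RNA molecule) with the WT label and at 273 CPM with the KO label, and in macrophages at 781 and 861 CPM. It was higher in the library labelled KO in all 10 cell classes compared, with an interval that included 0 on the log2 scale in B cells alone. A 5′ tag reads only the start of a transcript, and which part of the gene was deleted is not given, so these counts do not check the label. The 2 groups are therefore called the libraries labelled WT and KO throughout.

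After filtering, 4370 cells with 27911553 UMIs were kept in the library labelled WT and 3211 cells with 18194101 UMIs in that labelled KO. The median depth was 4314.5 and 4266 UMIs per cell. The libraries shared 29 cell barcodes, 0.664% and 0.903% of their cells. Cell classes were gated on 5 markers each, and 10 classes had at least 20 cells in both libraries. The class sizes ran from 28 neutrophils in the library labelled KO to 1024 macrophages in that labelled WT. All 5 markers of its own list were detected in each class, and its median marker level was above that of every other list. The gate used these same markers, so this does not test what the classes are. The gate for NK cells held 10 and 6 cells, and that for plasmacytoid dendritic cells (pDC) held 76 and 17. Both are described only where stated.

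Of the 87 rows, 83 had at least 1 UMI in the cells kept. The rows at 0 were Cox7b2, Cox8b, Cox8c and a second identifier of Atp5o. Members held 780503 UMIs in the library labelled WT and 537837 in that labelled KO. Sorted by symbol, complex V contributed 31.5% of them, complex I 29.4%, complex IV 27.4%, complex III 10.3% and complex II 1.57%. Ndufa4, with 25200 UMIs, and Ndufa4l2 were counted in complex I by symbol, although the protein of Ndufa4 is now placed in complex IV. The order of complexes I and IV rests on that choice. The 10 leading genes made up 31.9% of member UMIs. They were Atp5e (the epsilon subunit of F1), Cox4i1, Cox8a, Cox7c, Cox6c and Cox5b of cytochrome c oxidase, Atp5l (subunit g), Atp5h (subunit d of the peripheral stalk), and Atp5g3 and Atp5g2, which encode the proton-carrying c ring. A 5′ library counts 1 tag per RNA molecule, so these counts need no division by transcript length, though capture can differ between genes. Atp5e was found in 86.6% of the cells labelled WT and 93.6% of those labelled KO, the widest detection among these 10 genes. Many members have processed pseudogenes or close paralogues, so counts of near-identical copies are uncertain.

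The summed OXPHOS level differed more between cell classes than between the libraries. In the library labelled WT it was lowest in neutrophils, at 1.19% of UMIs (1.17 to 1.21), and low in B cells, at 1.61% (1.58 to 1.64). CD8 T cells followed at 1.87%, migratory dendritic cells (DC) at 1.95%, CD4 T cells at 2.19%, monocytes at 2.45%, the type 2 dendritic cells (cDC2) at 2.49%, the type 1 dendritic cells (cDC1) at 2.70% and regulatory T cells at 2.71%. Macrophages were highest among leukocytes, at 2.93% (2.92 to 2.94). The intervals of monocytes and cDC2 overlapped, as did those of cDC1 and regulatory T cells, while the others listed were apart. In the library labelled KO the order changed mainly in that CD8 T cells, at 2.64%, stood above migratory DC, at 2.18%, and CD4 T cells, at 2.46%. Neutrophils (1.75%) and B cells (1.86%) were again the lowest and macrophages (3.26%) the highest. The few cells that passed the gate for melanoma markers, 68 and 15, were far above all leukocytes, at 5.71% and 5.44%.

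**Figure D1:**
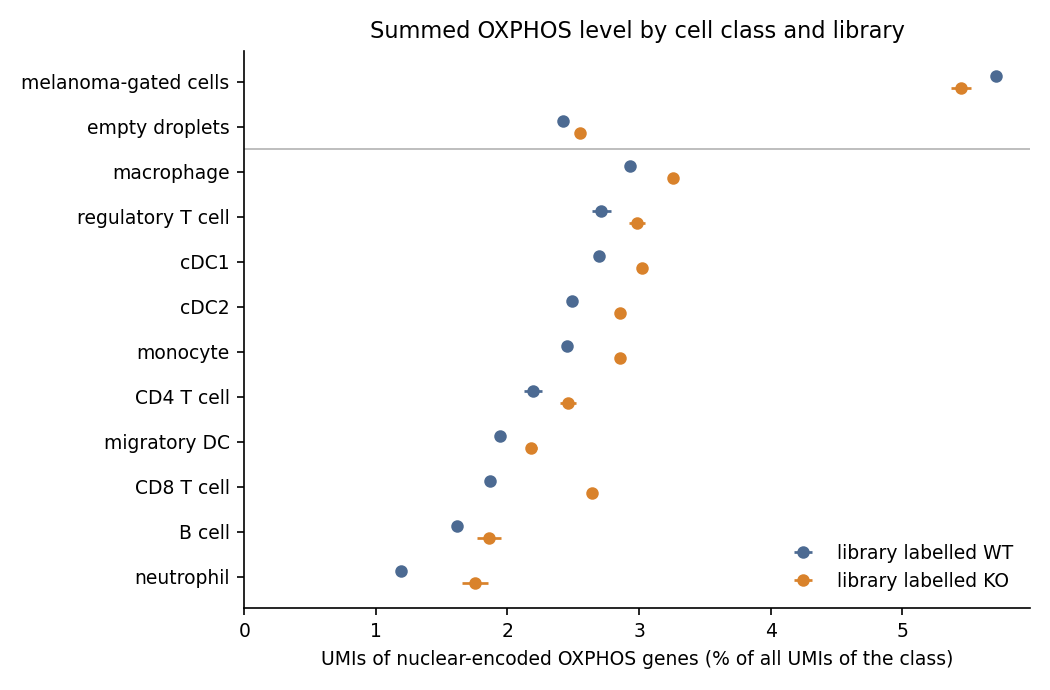
UMIs of all nuclear-encoded OXPHOS genes as a percentage of the UMIs of each cell class (x axis), with classes on the y axis and 1 point per library; bars are exact 95% intervals for counting error. The library labelled KO lies to the right of that labelled WT in each of the 10 leukocyte classes and to the left in melanoma-gated cells, which stand above 5% in both.

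Which genes set a class apart was tested on UMIs summed per class and library, each class against the unweighted mean of the other 9 with the library as a block (edgeR's quasi-likelihood test, Benjamini-Hochberg adjustment over the 9254 genes tested, threshold 0.05). The 2 libraries were the only samples. The p-values set a class difference against how class differences vary between the 2 pooled libraries, estimated over all classes together. Library and genotype are the same here, so a genotype effect in a class adds to that spread. The tests included 79 members. Macrophages had 59 members above the other classes and 2 below, where 29.2% and 20.4% of all genes were called. In cDC1 there were 35 above and 1 below (17.3% and 13.1% of all genes), in monocytes 26 and 0 (20.8% and 8.6%), and in cDC2 18 and 0 (14.8% and 6.32%). B cells had 0 above and 51 below (12.6% and 10.5%), and neutrophils 0 and 47 (22.4% and 12%). Migratory DC had 5 above and 16 below (19% and 11.2%). The T cell classes had few calls, with 6 above and 0 below in CD8 T cells (17.2% and 12.1%), 1 and 0 in CD4 T cells (6.8% and 4.03%) and 2 and 2 in regulatory T cells (9.04% and 5.09%).

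The median member stood 0.50 above the other classes on the log2 scale in macrophages, where the median over all genes was 0.08. It was 0.37 in cDC1 against 0.00 for all genes, -0.64 in B cells against -0.02, and -0.59 in neutrophils against -0.04. At an unadjusted p under 0.05, edgeR called 0 members above the other classes in B cells and 0 in neutrophils, and DESeq2 also called 0 in each after adjustment. Where edgeR called 0 below, the counts at an unadjusted p under 0.05 were 2 in CD8 T cells, 9 in CD4 T cells, 0 in monocytes and 1 in cDC2, and DESeq2 called 1, 3, 2 and 1. Leaving out 1 of the 2 sums of a class cut most of the counts. The class then has 1 sample, so only medians are given. Without the sum labelled WT, the median member was 0.52 in macrophages (0.12 for all genes) and 0.33 in cDC1 (0.02). It was 0.31 in monocytes (0.07), 0.27 in cDC2 (0.08), 0.11 in CD8 T cells (0.08) and -0.13 in migratory DC (-0.04). In neutrophils it was -0.79 against -0.77 for all genes, so the contrast of medians was nearly gone. In B cells it was -0.74 against -0.55. Without the sum labelled KO, the median member was 0.51 in macrophages (0.10), 0.37 in cDC1 (-0.03), 0.29 in monocytes (0.05) and 0.21 in cDC2 (0.05). It was -0.11 in CD8 T cells (0.02), -0.12 in migratory DC (-0.02), -0.51 in neutrophils (-0.01) and -0.58 in B cells (0.01). In monocytes and cDC2 the share of members called above was under that of all genes in both fits. In migratory DC the share below was near or under it. The share stayed larger than that of all genes in macrophages and cDC1 (above) and in B cells and neutrophils (below).

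The counts also moved with the depth of the cells. With at least 2000 UMIs and 800 genes per cell, B cells and neutrophils fell under 20 cells in a library and left the comparison. Of 79 members, CD8 T cells then had 3 above and 6 below, where 1569 and 1098 of 9503 genes were. CD4 T cells had 0 and 6 (482 and 358 genes). Migratory DC had 29 below (1193). Monocytes had 10 above (1953), cDC2 9 (1234), cDC1 25 (1411) and macrophages 46 (2469). In monocytes, cDC2 and CD8 T cells the members' shares were under those of all genes. Without cells that held 2 markers of a second list, cDC1 kept 15 and 17 cells and left the comparison. In monocytes 16 of 79 members were then above (1633 of 8125 genes). Below were 22 in B cells (728) and 5 in migratory DC (592). The shares in monocytes and migratory DC were near those of all genes.

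**Figure D2:**
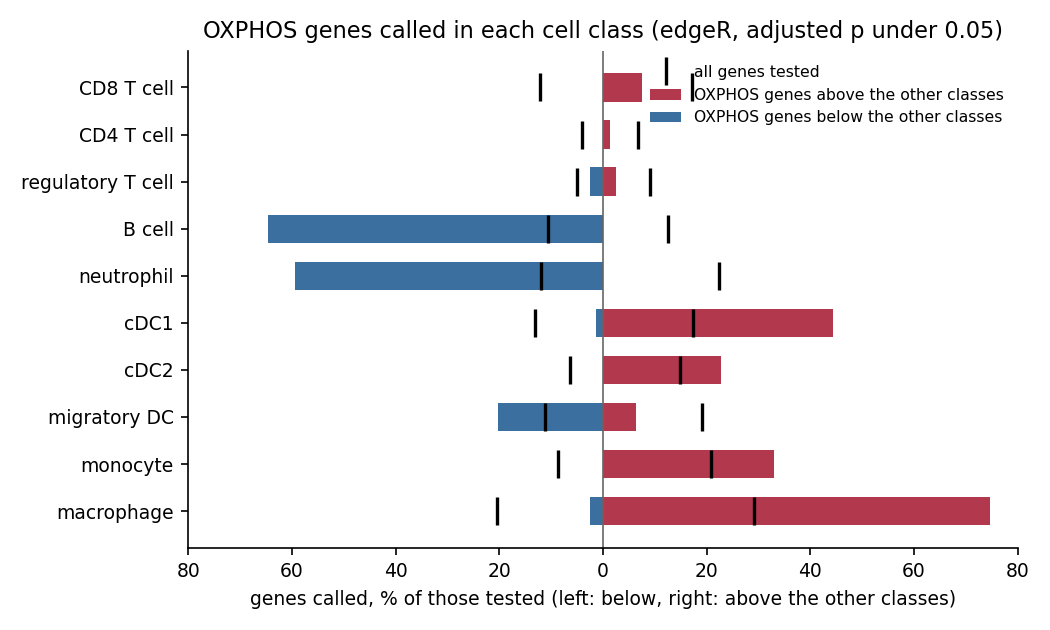
Percentage of the 79 OXPHOS genes tested (bars) that were called above (right) or below (left) the other cell classes, with classes on the y axis; black ticks give the same percentage over all 9254 genes tested. Bars pass the ticks on the right in macrophages (59 genes), cDC1 (35), monocytes (26) and cDC2 (18), and on the left in B cells (51), neutrophils (47) and migratory DC (16).

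The members furthest above the other classes were isoform genes at a low level. Cox7a1, known as the heart and skeletal muscle isoform of subunit VIIa of cytochrome c oxidase, stood at 26.3 and 26.4 CPM in macrophages of the libraries labelled WT and KO and at 10.4 and 18.3 CPM in monocytes. No other class compared passed 15.3 CPM, a value that rests on 1 UMI in neutrophils labelled KO. The log2 difference from the other classes was 2.86 ± 0.28 (SE, edgeR, adjusted p = 9.2e-09) in macrophages and 1.88 ± 0.40 (adjusted p = 0.00067) in monocytes. Cox7a1 still made up only 3.72% and 3.37% of the UMIs of Cox7a1, Cox7a2 and Cox7a2l in macrophages, and 211 of 1024 and 121 of 789 macrophages had a UMI of it. Cox6b2, known as the testis isoform of subunit VIb, stood at 32.7 and 22.2 CPM in cDC2, at 16.0 and 9.92 CPM in monocytes and at 6.14 and 6.08 CPM in macrophages. Its log2 difference was 2.44 ± 0.27 in cDC2 (adjusted p = 1.9e-07) and 1.33 ± 0.31 in monocytes (adjusted p = 0.0018).

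Single complex I genes differed between the dendritic cells. Ndufa6, an accessory subunit of the matrix arm, stood at 838 and 964 CPM in cDC2, the highest of the 10 classes in both libraries, and at 667 and 823 CPM in cDC1. All other classes were between 219 and 469 CPM. Its log2 difference was 1.15 ± 0.12 in cDC2 (edgeR, adjusted p = 1.2e-07) and 0.86 ± 0.13 in cDC1 (adjusted p = 1.3e-05). Ndufb11, an X-linked accessory subunit of the membrane arm, was highest in cDC1, at 433 and 536 CPM, with a log2 difference of 0.98 ± 0.12 (adjusted p = 8.6e-07). Migratory DC were on the other side for Ndufa5, an accessory subunit of the matrix arm, at 33.6 and 41.4 CPM, where macrophages had 172 and 193 CPM. The log2 differences were -1.31 ± 0.21 in migratory DC (adjusted p = 2.3e-05) and 1.02 ± 0.12 in macrophages (adjusted p = 2.1e-07).

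Some members ran against the rest of the pathway. Uqcrh, the hinge protein of complex III, was called above the other classes in CD8 T cells (log2 difference 0.70 ± 0.12, edgeR, adjusted p = 0.00011), CD4 T cells (0.48 ± 0.14) and migratory DC (0.41 ± 0.13). It was called below them in cDC1 (-0.54 ± 0.14) and macrophages (-0.49 ± 0.14), whose called members were nearly all above, and in neutrophils (-0.51 ± 0.16). Cox7a2l, a paralogue of Cox7a1 and Cox7a2, had a similar order. It was above in CD8 T cells (0.69 ± 0.13, adjusted p = 0.0003) and migratory DC (0.42 ± 0.15), and below in macrophages (-0.66 ± 0.14, adjusted p = 0.00039) and neutrophils (-0.73 ± 0.19). In neutrophils the largest called difference was that of Atp5g2, at 202 and 260 CPM (log2 difference -1.22 ± 0.17, adjusted p = 1.4e-06). In B cells it was that of Ndufb6, an accessory subunit of complex I, at 82.6 and 68.0 CPM (-1.19 ± 0.21, adjusted p = 0.00019).

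The 4 genes of succinate dehydrogenase did not move as a block between classes. Sdhc, a membrane anchor, was above the other classes in macrophages (log2 difference 1.20 ± 0.14, edgeR, adjusted p = 1.5e-07), cDC2 (0.59 ± 0.17) and monocytes (0.58 ± 0.17). It stood at 97.0 and 100.0 CPM in macrophages and at 26.5 and 15.3 CPM in neutrophils. Sdhb, the iron-sulphur subunit, was above in macrophages (0.79 ± 0.14) and monocytes (0.48 ± 0.16) and below in B cells (-0.81 ± 0.25) and migratory DC (-0.57 ± 0.21). Sdhd, the other anchor, was above in cDC1 (0.79 ± 0.15) and macrophages (0.45 ± 0.13) and below in B cells (-0.68 ± 0.24). Sdha, the flavoprotein that oxidises succinate, was called only in neutrophils, below the other classes (-0.63 ± 0.24, adjusted p = 0.047). In macrophages it differed from them by 0.17 ± 0.13 (adjusted p = 0.3).

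Cox6a2 marked 1 class almost alone. It is known as the heart and skeletal muscle isoform of subunit VIa of cytochrome c oxidase, and its gene lies on mouse chromosome 7 (GRCm38.p6, chr7:128205435-128206366). In pDC it had 853 UMIs in the library labelled WT, 2105 CPM (1966 to 2252), and 160 UMIs in that labelled KO, 1976 CPM (1681 to 2307). A UMI of it was found in 73 of 76 and in 16 of 17 pDC, or 96.1% and 94.1%. Among CD8 T cells labelled KO 0 of 391 had a UMI, and 3 counts of that number would be 0.767%, a limit on cells with a UMI and not on cells that express the gene. In the 10 other classes its level did not pass 2.62 CPM in either library, and the largest share of cells with a UMI among them was 1.77%, in macrophages labelled KO. Median depths of the macrophages, 8497 and 6381 UMIs, were above those of the pDC, 5076 and 4704 UMIs. Of the UMIs of Cox6a1 and Cox6a2 together, Cox6a2 made up 84.6% (82.2 to 86.8) and 85.6% (79.7 to 90.3) in pDC, where both libraries overlapped. With classes of at least 10 cells admitted to the test, an alternative chosen after seeing the data, its edgeR adjusted p in pDC was 2.6e-22. The fitted difference rests on sums near 0 in the other classes and is not given as a fold. The other isoform genes were rare in all classes. Cox4i2, the isoform of subunit IV known from lung, had 85 and 24 UMIs in macrophages, and Ndufa4l2 had 26 and 4.

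**Figure D3:**
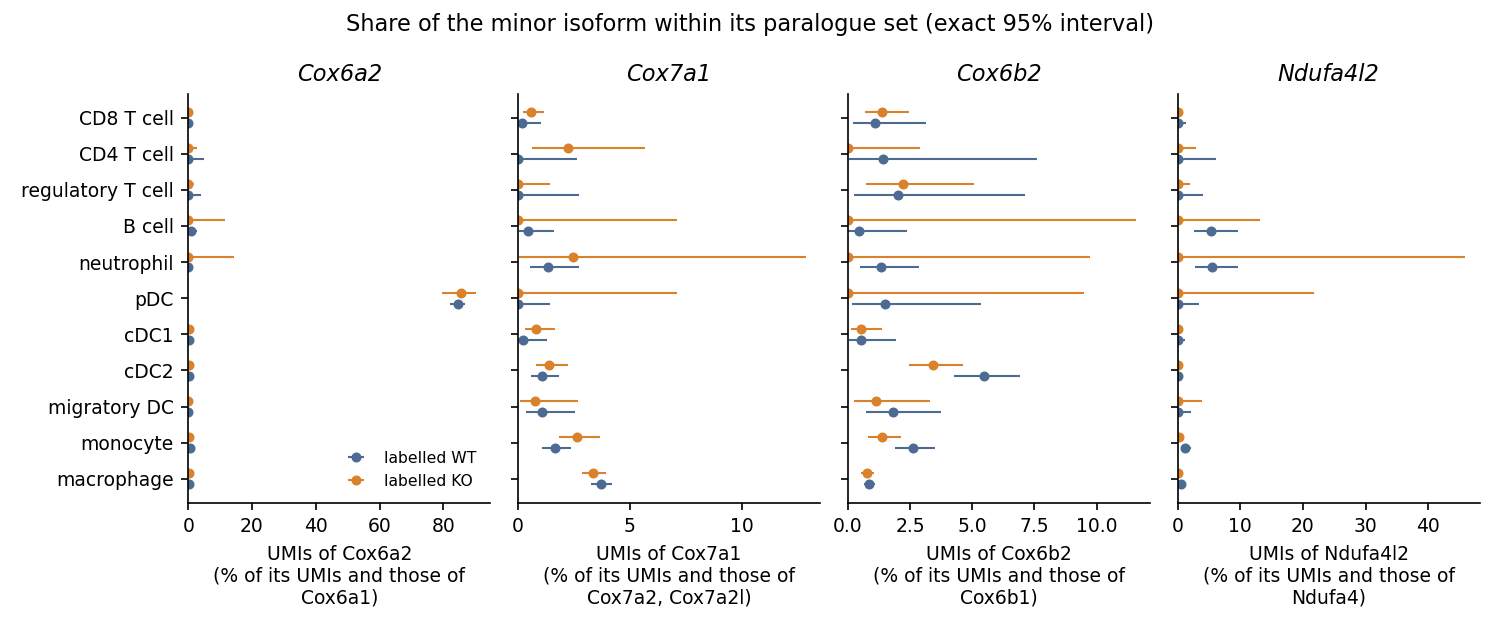
UMIs of 4 minor isoform genes as a percentage of the UMIs of their paralogue set (x axes, each with its own scale), by cell class (y axis) and library; bars are exact 95% intervals. Cox6a2 makes up 84.6% and 85.6% of its set in pDC and stays near 0 elsewhere; Cox7a1 is at 3.72% and 3.37% in macrophages, and wide intervals belong to classes with few UMIs.

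Between the libraries, the summed OXPHOS level was higher in that labelled KO in each of the 10 classes. The log2 ratio (KO over WT) was 0.50 (0.48 to 0.53) in CD8 T cells, from 18659 to 26422 CPM, and 0.55 (0.47 to 0.64) in neutrophils, from 11924 to 17509 CPM. In the other 8 classes it was smaller. It was 0.22 in monocytes, 0.20 in B cells, 0.20 in cDC2, 0.17 in cDC1, 0.17 in CD4 T cells, 0.16 in migratory DC and 0.14 in regulatory T cells. In macrophages it was 0.15 (0.14 to 0.16), from 29309 to 32592 CPM. All 10 intervals were above 0. In pDC the ratio was 0.17, in T cells with neither or both coreceptors 0.25, and in the few NK cells -0.17. The ratio was 0.07 (0.06 to 0.09) in empty droplets, which hold free RNA, and -0.07 (-0.09 to -0.05) in melanoma-gated cells. Whether a class ratio reflects the genotype or the library cannot be told apart, and the 10 ratios share the same 2 libraries.

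The count of genes past a fixed fold was read against all genes. A member counts as measured with at least 20 UMIs over both libraries, and 1.5-fold was the rule of size. In CD8 T cells 39 of 77 measured members were at least 1.5-fold higher in the library labelled KO and 0 lower, where 27.2% and 7.22% of all genes were. The median member was at 0.59 and the median gene at 0.24. In neutrophils 42 of 75 were higher and 4 lower (28.9% and 27.7% of all genes), with only 28 cells labelled KO. By melanoma transcripts, free RNA was estimated at 26.4% of the UMIs of these 28 cells, an estimate that rests on 6 marker UMIs. With that share subtracted, the summed neutrophil ratio was 0.34, with 31 members higher and 14 lower. The median member was then at 0.39 and the median gene at -0.004. Removing cells that held 2 markers of a second list left 24 neutrophils labelled KO. The summed neutrophil ratio was then 0.13, with 17 higher and 20 lower of 73. The median member was at 0.07 and the median gene at 0.003. In B cells 15 of 76 were higher and 3 lower (18.2% and 28.3%), a share of higher genes near the background. In CD4 T cells 11 of 73 were higher and 1 lower (18.6% and 10.6%). The CD4 values moved with the setting. Without Mki67 or Top2a cells the summed ratio was 0.32 with 24 members higher, a median member of 0.42 and a median gene of 0.11. Thinned to 1000 UMIs it was 0.29 with 14 of 50, and the medians were 0.39 and 0.08. Scaled by the median ratio it was 0.09 with 6 higher and 3 lower. The share of all genes past the fold is not given under these CD4 and neutrophil settings, so their counts have no background. In regulatory T cells 5 of 75 were higher and 0 lower (13.3% and 13%). The other 5 classes had few such members. There were 2 higher and 0 lower of 77 in cDC1 (11.1% and 8.71% of all genes), 0 and 0 of 79 in cDC2 (8.71% and 9.38%), and 2 and 1 of 77 in migratory DC (11.5% and 14.8%). Monocytes had 4 higher and 2 lower of 81 (11.1% and 8.4%), and macrophages 1 and 2 of 83 (6.99% and 7.73%). T cells with neither or both coreceptors had 3 and 0 of 77 (14.6% and 8.64%), and all cells together 0 and 2 of 83 (7.92% and 12.8%). The difference in these 5 classes was thus small per gene and spread over many genes. Over all 10 classes 593 of 773 measured values were above 0 (76.7%), against 52.6% of the values of all genes.

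CD8 T cells also differed between the libraries in other ways. UMIs of Mki67 or Top2a, which mark dividing cells, were found in 6.09% of the CD8 T cells labelled WT and in 14.8% of those labelled KO. Cytosolic ribosomal protein genes took 438237 and 380419 CPM of their UMIs. Without the cells that had a UMI of Mki67 or Top2a, the summed ratio was 0.36 and 23 members were at least 1.5-fold higher. The median member was then at 0.40 and the median gene at 0.16. Relative to the median of all genes, 0.24, the summed ratio was 0.26 and 16 members were higher. The share of all genes past the fold is not given under these 2 settings. The members with the highest intervals were Atp5g3 (364 and 698 CPM, log2 ratio 0.94, 0.76 to 1.12), Ndufb7 (154 and 313 CPM, 1.02), Ndufb8 (102 and 216 CPM, 1.08) and Ndufa11 (89.4 and 215 CPM, 1.26, 0.90 to 1.64). The last 3 encode accessory subunits of the membrane arm of complex I. The lowest were Cox7a2l, Ndufa6 (469 and 441 CPM, -0.09, -0.27 to 0.09), 2010107E04Rik and Uqcrh.

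Grouped by role, a grouping made after the values were seen, the small subunits and the catalytic parts gave different ratios. The 4 small membrane subunits of the ATP synthase (Atp5j2, Atp5k, Atp5l and 2010107E04Rik) had 36 of 40 values above 0, and the 5 small subunits of complex III (Uqcrb, Uqcrq, Uqcrh, Uqcr10 and Uqcr11) 45 of 50. Accessory subunits of complex I, with Ndufa4 and Ndufa4l2 counted there by symbol, had 250 of 297 above 0. The genes of cytochrome c oxidase had 98 of 119, and the peripheral stalk of the ATP synthase 33 of 40. In these 5 groups the group median was above 0 in at least 9 of the 10 classes. F1, the catalytic head of the ATP synthase (Atp5a1, Atp5b, Atp5c1, Atp5d and Atp5e), had 23 of 50 values above 0 and a median above 0 in 3 classes. Complex III core and catalytic proteins (Cyc1, Uqcrfs1, Uqcrc1 and Uqcrc2) had 20 of 40, succinate dehydrogenase 22 of 39 and the core of complex I 42 of 66. The intermediate group was the c ring, with 22 of 30. Scaled by the median ratio of all genes, the small membrane subunits had a median above 0 in 9 of 10 classes and 32 of 40 values above 0, and F1 in 3 of 10 with 20 of 50. The F1 median was 0.33 in CD8 T cells, 0.34 in neutrophils and 0.20 in regulatory T cells, and lay between -0.28 (migratory DC) and -0.02 (cDC1) in the other 7 classes.

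**Figure D4:**
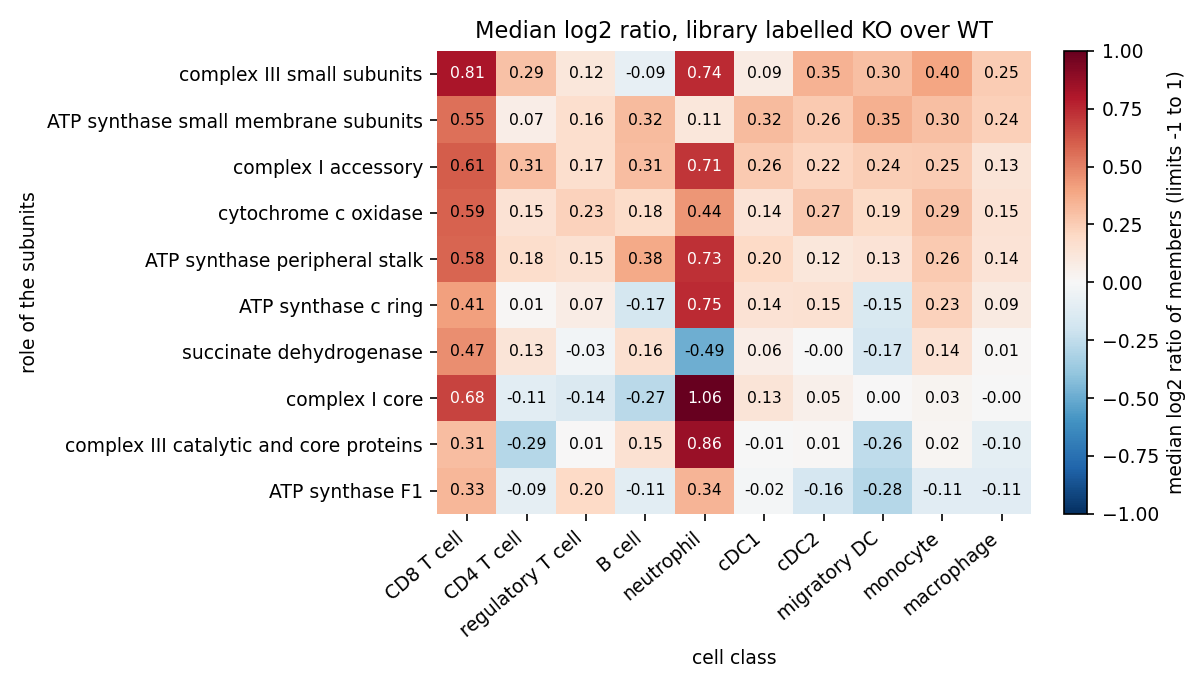
Median log2 ratio (library labelled KO over WT) of the measured OXPHOS genes in each role group (rows) and cell class (columns); colour runs from -1 to 1 and each cell prints its median. The upper 5 rows are above 0 in every column except complex III small subunits in B cells (-0.09), while F1 is above 0 in 3 of 10 columns.

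The order of the role groups was partly the same outside the classes. In empty droplets the median was 0.11 for the small membrane subunits of the ATP synthase, with 4 of 4 above 0, and -0.10 for F1, with 2 of 5 above 0. The core of complex I was at -0.14 there and its accessory subunits at 0.05. In melanoma-gated cells the small membrane subunits were at 0.03, F1 at -0.24 and the complex III core and catalytic proteins at -0.38. The other groups raised in the classes had medians below 0 there. The small subunits of complex III were at -0.01 with 1 of 5 above 0, and cytochrome c oxidase at -0.01 with 2 of 11. Complex I accessory subunits were at -0.02 with 13 of 30, and the peripheral stalk at -0.11 with 2 of 4. Melanoma-gated cells are of the injected line in both libraries. In the other gates the F1 median was above 0, at 0.02 in pDC, 0.09 in T cells with neither or both coreceptors and 0.01 in unassigned cells, and the small membrane subunits were at 0.43, 0.35 and 0.35. After subtraction of free RNA by melanoma transcripts, F1 again had a median above 0 in 3 of 10 classes and the small membrane subunits in 9. Thinned to 1000 UMIs per cell the contrast was weaker, with F1 above 0 in 5 of 10 classes and complex III core and catalytic proteins in 6 of 9, while the small membrane subunits were above 0 in all 10.

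The single members hold the same values as the role groups, so they describe the contrast and do not test it again. Of the 73 members measured in all 10 classes, 19 were higher in the library labelled KO in each class and 15 in at most 5. The share of all genes with 1 direction in every class is not given here, so these counts have no background. All 10 ratios of a gene share the same 2 libraries. Atp5j2, subunit f of the ATP synthase, was one of the 19. It went from 374 to 602 CPM in CD8 T cells, from 491 to 677 CPM in monocytes (log2 ratio 0.46, 0.35 to 0.58) and from 735 to 864 CPM in macrophages (0.23, 0.18 to 0.29). Its interval was above 0 in 9 of 10 classes, all but regulatory T cells. In the smaller pDC class it stood at 434 and 383 CPM, with overlapping intervals. Ndufa5 had the largest median ratio of the 19, 0.61, and ranged from 0.16 in macrophages to 1.43 in neutrophils. Cox6c, a small subunit of cytochrome c oxidase, ranged from 0.07 in neutrophils to 0.59 in CD8 T cells and was at 0.31 (0.26 to 0.36) in macrophages, from 787 to 977 CPM. Atp5e, which belongs to F1, left its group: it was higher in all 10 classes, from 0.05 in cDC1 to 0.46 in CD8 T cells. Scaled by the median ratio of all genes, Atp5j2 and Ndufa5 were higher in all 10 classes, and Cox6c and Atp5e in 9 with 0 lower. Thinned to 1000 UMIs per cell, Atp5j2 was higher in all 10, Cox6c in 9 and Atp5e in 8, and Ndufa5 in each of the 5 classes where it was still measured.

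The other F1 genes differed from Atp5e. Atp5d, the delta subunit, was lower in the library labelled KO in 8 of 10 classes, with intervals below 0 in 5. It stood at 463 and 411 CPM in monocytes (log2 ratio -0.17, -0.30 to -0.04) and at 469 and 433 CPM in macrophages (-0.11). In CD8 T cells it was higher, at 310 and 390 CPM (0.33, 0.12 to 0.54). Atp5b, the catalytic beta subunit, was lower in 7 of 10 classes, with 409 and 358 CPM in macrophages (-0.19, -0.27 to -0.11). Atp5a1, the alpha subunit, was lower in 6 of 10, with 346 and 291 CPM in cDC2 (-0.25, -0.42 to -0.09). Cyc1, which carries the haem that hands electrons to cytochrome c, was also lower in 6.

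Cox7a2l was the only member measured in all 10 classes that was lower in the library labelled KO in each of them. How many of all genes were lower in each class is not given here. Its log2 ratio ran from -0.70 (-0.92 to -0.49) in monocytes, from 219 to 135 CPM, to -0.12 (-0.25 to 0.01) in macrophages, at 144 and 133 CPM. It was at 322 and 256 CPM in CD8 T cells (-0.33, -0.55 to -0.10), at 255 and 197 CPM in cDC1 (-0.37) and at 257 and 202 CPM in cDC2 (-0.35). Intervals were below 0 in these 3 classes and in monocytes and included 0 in the other 6. In empty droplets Cox7a2l was at 174 and 184 CPM (632 and 592 UMIs), so it was not lower under the KO label there. No interval is given for that small difference. In melanoma-gated cells it was at 179 and 136 CPM. With every cell thinned to 1000 UMIs it was lower in 7 of 10 classes.

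**Figure D5:**
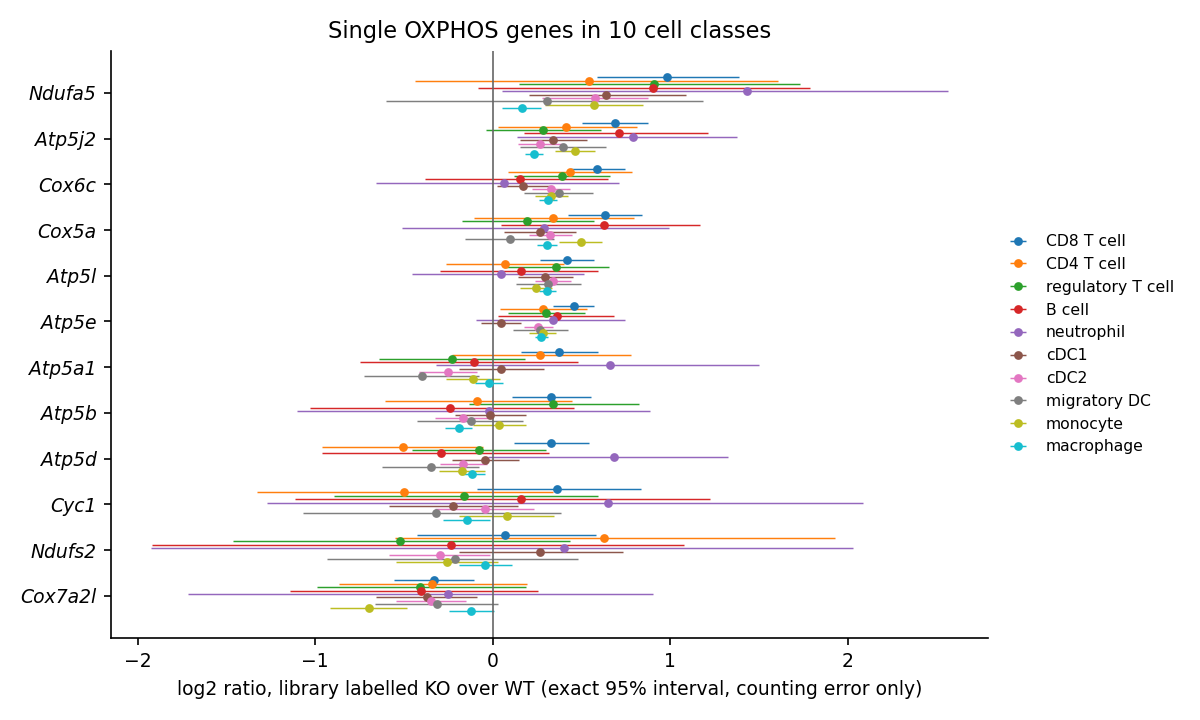
Log2 ratio (library labelled KO over WT, x axis) of 12 OXPHOS genes (y axis) with 1 coloured point per cell class; bars are exact 95% intervals for counting error. All 10 points are right of 0 for Ndufa5, Atp5j2, Cox6c, Cox5a, Atp5l and Atp5e, and all 10 are left of 0 for Cox7a2l.

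Nuclear and mitochondrially encoded OXPHOS genes gave different ratios. The 13 protein genes of mitochondrial DNA summed to 34914 CPM in CD8 T cells labelled WT and 30766 CPM in those labelled KO, a log2 ratio of -0.18 (-0.20 to -0.16), and all 13 were below 0. The number of nuclear OXPHOS UMIs per mitochondrially encoded one was 0.534 (0.524 to 0.545) and 0.859 (0.848 to 0.870). In regulatory T cells the mitochondrially encoded sum differed by -0.42 (-0.47 to -0.37) and the number of nuclear UMIs per mitochondrial one went from 0.939 to 1.38. Migratory DC showed -0.24 and went from 0.943 to 1.25. In neutrophils both sums were higher in the library labelled KO, the mitochondrial one by 0.61 (0.53 to 0.69), and the number per mitochondrial UMI was 0.826 and 0.795, with overlapping intervals. In macrophages the mitochondrial sum differed by 0.03 and the number was 1.21 and 1.32. The cell filter caps mitochondrial UMIs at 10%, which bounds these sums. With a limit of 5% the log2 ratio of nuclear to mitochondrial UMIs in regulatory T cells was 0.27 in place of 0.56, and in neutrophils, at -0.05, it was above 0. Among the 13 genes mt-Atp8 was lower in the library labelled KO in all 10 classes, from 282 to 116 CPM in macrophages (-1.28) and from 456 to 156 CPM in CD8 T cells (-1.55), with intervals that included 0 in CD4 T cells and neutrophils. Its sequence overlaps mt-Atp6, so the counting of its tags is uncertain.

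Other genes of the pathway were taken from fixed lists. Of 43 assembly factors, which build the complexes without being part of them, 32 were measured in CD8 T cells, with 11 at least 1.5-fold higher (34.4%, where 27.2% of all genes were), 0 lower and a median log2 ratio of 0.42, where the median gene was at 0.24. In macrophages 42 were measured, with 1 higher, 0 lower and a median of -0.01. Of 78 genes of the mitochondrial ribosome, which translates the mitochondrially encoded subunits, 76 were measured in CD8 T cells, with 25 higher (32.9%), 1 lower and a median of 0.43, and 78 in macrophages, with a median of -0.02 where OXPHOS members had 0.11. The 12 regulators of mitochondrial gene expression (among them Ppargc1a, Nrf1 and Gabpa) summed to 257 and 270 CPM in CD8 T cells and to 196 and 195 CPM in macrophages, and the interval of their summed ratio included 0 in all 10 classes. Cycs, cytochrome c itself, was higher in the library labelled KO in CD8 T cells (277 and 377 CPM) and macrophages (437 and 552 CPM). The ADP/ATP carrier Slc25a5 was at 260 and 328 CPM in CD8 T cells and at 430 and 403 CPM in macrophages.

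Promoter sequence gives one view of what the members share beyond their function. Nuclear respiratory factor 1 (NRF1), the ETS factor GABP and YY1 are the factors classically tied to OXPHOS promoters. RefSeq windows of 300 bases (250 before the annotated start and 50 after, GRCm38.p6) were at hand for 69 of the 86 symbols. The NRF1 word (GCGCA and GCGC parted by any base) was found on either strand in 17 of 69 members (24.6%) and in 5.19% of the 27025 genes with a window. CCGGAAG (ETS) was found in 16 members (23.2%, against 9.93%), and AANATGGC (YY1) in 17 (24.6%, against 6.96%). At least 1 of the 3 words was in 43 members (62.3%) and in 19.4% of all genes, and no match of one word overlapped one of another. The 120 bases before the start are shown for members that the results above turn on, 5′ to 3′ on the gene's strand, with each match in capitals. The first 4 hold matches and belong to widely expressed subunits, including Cox6a1, the partner isoform of Cox6a2, which has no window. Other widely expressed members, among them Cox5a, Cox5b and Cox7c, had a window with none of the 3 words. The genes shown therefore do not tie the words to breadth of expression. The last 3 belong to Cox7a2l and to the restricted isoform genes Cox7a1 and Cox6b2.
Cox6a1 (chr5:115348959-115349078, minus strand): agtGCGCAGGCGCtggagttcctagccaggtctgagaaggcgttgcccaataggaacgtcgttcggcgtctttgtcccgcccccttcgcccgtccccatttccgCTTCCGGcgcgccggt
Atp5e (chr2:174464102-174464221, minus strand): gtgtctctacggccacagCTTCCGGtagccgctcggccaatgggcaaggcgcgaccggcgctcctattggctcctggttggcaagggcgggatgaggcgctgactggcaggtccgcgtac
Atp5g2 (chr15:102671048-102671167, minus strand): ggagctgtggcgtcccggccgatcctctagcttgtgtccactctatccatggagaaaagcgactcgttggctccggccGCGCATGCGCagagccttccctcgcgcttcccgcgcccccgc
Sdhd (chr9:50603850-50603969, minus strand): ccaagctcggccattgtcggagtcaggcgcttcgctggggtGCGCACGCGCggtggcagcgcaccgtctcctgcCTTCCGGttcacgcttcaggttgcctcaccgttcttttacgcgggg
Cox7a2l (chr17:83514334-83514453, minus strand): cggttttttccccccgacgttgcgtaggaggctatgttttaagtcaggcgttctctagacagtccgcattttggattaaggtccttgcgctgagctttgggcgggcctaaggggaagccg
Cox7a1 (chr7:30184051-30184170, plus strand): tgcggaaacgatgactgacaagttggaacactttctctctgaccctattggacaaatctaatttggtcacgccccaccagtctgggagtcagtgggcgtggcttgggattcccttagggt
Cox6b2 (chr7:4753095-4753214, minus strand): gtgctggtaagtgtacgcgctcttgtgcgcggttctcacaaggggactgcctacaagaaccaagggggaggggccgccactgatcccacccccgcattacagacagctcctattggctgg

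In the bases shown, Cox6a1 and Sdhd held both an NRF1 and an ETS word, Atp5e an ETS word and Atp5g2 an NRF1 word. None of the 3 words was found in the whole windows of Cox7a2l, Cox7a1 and Cox6b2, which says only that these letters are not in these windows. Atp5e and Cox6a1, with matches, were higher in the library labelled KO in all 10 classes, while Atp5g2, also with a match, was higher in 5 of 10, and Cox7a2l, with none, in 0. Most matches of the YY1 word lay after the annotated start, 10 of 18. A match is a description of the letters and not a binding site.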

How the data were processed

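The 2 RNA libraries were used. The deposited matrices hold raw UMI counts per gene and barcode. Per the file headers the authors made them with Cell Ranger 3.1.0. The submitters' processing notes give mm10 as the build and list Seurat 3.2.0 and R 3.6.1, without stating what each was for. The matrices are unfiltered (737280 barcodes each). Receptor tables were not used. Members and gene lists were chosen with earlier results of these data known.

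Barcodes with at least 1000 UMIs, 500 genes and at most 10% mitochondrial UMIs were kept. A class needed UMIs of at least 2 of its 5 markers and more than in any other list, and ties stayed unassigned. Doublets were not called; an alternative kept only cells with fewer than 2 markers of every other list. UMIs were summed per class and library, with exact Poisson (levels), Clopper-Pearson (shares) and conditional binomial (ratios) intervals. Classes were tested with edgeR 4.0.16 on genes passing filterByExpr, and with DESeq2 1.42.0 as an alternative, in R 4.3.3. Only the edgeR test was tried on simulated data. There it recovered 6% of genes changed 1.5-fold in neutrophils, 20.9% in CD8 T cells and 37.3% in macrophages. Alternatives were other cell limits (depth included), gates, thinning, scalings, filters on low counts and leaving out 1 sum. No replicates exist, so p-values measure how class differences vary between 2 pooled libraries, with that spread estimated over all classes together.

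Named genes were the 10 with most UMIs, the members with the highest and lowest interval bounds per class (4 and 4 in CD8 T cells, cDC1, monocytes and macrophages, 2 and 2 elsewhere), the 3 largest called differences per class test with the same sign in both libraries, all paralogue sets and all Sdh genes, of which the text describes a part. Ndufa5, Atp5j2, Cox6c and the F1 genes were also singled out after their values were seen.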

Additional observations from a re-analysis of the deposited data

Results flagged for a closer look

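The summed OXPHOS log2 ratio (library labelled KO over WT) in melanoma-gated cells was -0.0693, opposite in direction to the 10 leukocyte classes, where it was between 0.14 and 0.55. Only 68 and 15 such cells were kept, and they are of the injected line in both kinds of host. The mitochondrially encoded sum differed in opposite directions in regulatory T cells, with a log2 ratio of -0.42, and in neutrophils, with 0.61. Each value is 1 library against 1, so neither difference between groups of cells was tested.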

How the results depend on the processing

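No paired analysis was possible because each genotype has 1 library. The summed log2 ratio stayed above 0 in every class compared under all 12 alternatives, and its size moved. In CD8 T cells it was 0.54 with at least 2000 UMIs and 800 genes, 0.42 thinned to 1000 UMIs, 0.64 without cells holding 2 markers of a second list, 0.36 without Mki67 or Top2a cells, 0.34 with totals free of mitochondrial, ribosomal and haemoglobin UMIs, 0.26 scaled by the median ratio and 0.39 with cells weighted equally. In cDC1 it was 0.20 thinned and 0.12 by the median ratio. In monocytes it was 0.17 with 3 markers, 0.18 thinned, 0.19 with the reduced totals and 0.18 by the median ratio. In macrophages it was 0.17 at a mitochondrial limit of 5%, 0.14 with 3 markers, 0.16 after subtraction of free RNA, 0.18 without Mki67 or Top2a cells, 0.17 with the reduced totals and 0.17 by the median ratio. CD8 members at least 1.5-fold higher numbered 23 without Mki67 or Top2a cells, 23 with the reduced totals, 16 by the median ratio and 25 with cells weighted equally. The median gene was at 0.16 without Mki67 or Top2a cells, 0.08 with the reduced totals and 0.23 with cells weighted equally. The share of all genes past the fold is not given for these settings. The log2 ratio of nuclear to mitochondrial UMIs was 0.76 (2000 UMIs) and 0.73 (limit of 5%) in CD8 T cells, 0.17 (5%) and 0.19 (20%) in cDC1, and 0.14 (2000 UMIs) and 0.15 (20%) in macrophages. In neutrophils it turned from below 0 to 0.023 (5%) and 0.045 (20%). The cause of these moves was not tested. Leaving out 1 sum of the class gave 30 to 41 members above in macrophages, 14 to 17 above in cDC1, 11 to 29 below in B cells and 16 to 36 below in neutrophils, and 22 were below in B cells without cells of a second list. Removing Mki67 or Top2a cells, removing cells of a second list and subtracting free RNA by melanoma transcripts were chosen after seeing the data. The planned subtraction by haemoglobin was not run, because haemoglobin in the empty droplets differed widely between the libraries. With 28 to 50 cells in the smallest classes, depth limits what single genes show there.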
